A study of Mus musculus with 2 samples.

Results

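Astrocytes were examined in single-cell RNA-seq of aged mouse hippocampus, as cells rich in transcripts of 6 astrocyte genes and poor in those of 6 genes of other brain cells. The astrocyte genes were Aqp4 (the water channel of astrocyte endfeet), Gja1 (the gap junction protein connexin 43), Slc25a18 (a mitochondrial glutamate carrier), Acsbg1 (an acyl-CoA synthetase), Fgfr3 (a fibroblast growth factor receptor) and Mlc1 (a membrane protein of endfeet). A cell was kept when these genes summed to at least 5 unique molecular identifiers (UMIs, tags that mark single captured molecules) and to at least 15 per 10000 UMIs of the cell. Their sum also had to be 3 or more times that of Mog and Mag (oligodendrocytes), Pdgfra (oligodendrocyte precursors), Csf1r (microglia), Flt1 (endothelium) and Slc17a7 (excitatory neurons). Of 31095 cells with 500 or more UMIs, 2962 were kept, 1312 of 15912 in the control library and 1650 of 15183 in the tomatidine library.

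The mice were C57BL/6 wild type, of both sexes in the study, and 21 months old when the diets began. Controls ate standard chow, and treated mice ate chow with 0.05% tomatidine, a plant-derived steroidal compound, for 3 months. Hippocampi of 4 mice were pooled into 1 library per group, so a difference between diets, between pools of animals and between library preparations cannot be told apart, and no test between the groups could be made. Intervals below are 95% intervals for counting error alone. The libraries held 279525565 and 259059908 UMIs in all, with a median of 7556.5 and 7891 per cell, and the kept astrocytes had medians of 4043 and 4432.5. The libraries shared 292 cell barcodes, 2 of them among astrocytes.

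Astrocytes take up glutamate, GABA and glycine from synapses, buffer potassium, move water at vessels, and supply neurons with lactate and with cholesterol carried on apolipoprotein E. They are not uniform across the brain. Angiotensinogen (Agt), the precursor of angiotensin, and Slc6a11, which encodes the GABA transporter GAT-3, are known as abundant in astrocytes of thalamus, hypothalamus and other regions below the forebrain cortex. Slc7a10, which encodes the transporter Asc-1 for D-serine, glycine and other small neutral amino acids, is known as abundant in astrocytes of cortex and hippocampus. The cells were therefore also described by their balance of these transcripts.

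The proximal promoters of Agt and Slc7a10, the pair whose balance most of the subset results use, are shown first. In the GENCODE annotation of mm10, Agt lies at chr8:124556534-124569706 on the minus strand, Slc7a10 at chr7:35186385-35201114 and Slc6a11 at chr6:114131241-114249952, both on the plus strand. The sequences are the 250 bases before the RefSeq start in build GRCm38.p6, 5′ to 3′ on the gene's own strand, and capitals mark the TATA box letters TATAAA.
Agt, chr8:124569707-124569956, minus strand: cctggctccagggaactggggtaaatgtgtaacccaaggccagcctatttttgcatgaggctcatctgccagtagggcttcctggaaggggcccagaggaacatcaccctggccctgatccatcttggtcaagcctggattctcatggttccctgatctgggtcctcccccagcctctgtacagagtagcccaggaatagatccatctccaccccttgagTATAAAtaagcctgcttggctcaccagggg
Slc7a10, chr7:35186135-35186384, plus strand: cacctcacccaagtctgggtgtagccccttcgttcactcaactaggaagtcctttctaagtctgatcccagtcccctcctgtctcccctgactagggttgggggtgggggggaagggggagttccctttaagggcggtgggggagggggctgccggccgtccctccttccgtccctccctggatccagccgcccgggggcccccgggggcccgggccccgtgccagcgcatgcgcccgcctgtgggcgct
TATAAA was searched on both strands of windows from 250 bases before to 50 after each start. It stood at -30 to -25 of Agt, was not found in the Slc7a10 and Slc6a11 windows, and was found in 13.6% of 32851 RefSeq promoters. Those windows held 1 CG pair for Agt, 24 for Slc7a10 and 32 for Slc6a11, against a median of 7 over all promoters. A match of letters is a description and not a shown site.

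The kept cells carried the genes that mark astrocytes beyond the 6 used to choose them. All 24 genes of an astrocyte identity list were higher in the kept cells than in all other cells by edgeR's quasi-likelihood test with Benjamini-Hochberg adjustment, with a median log2 fold change of 4.03. The background of this contrast was high, since 68.4% of 15534 genes were called, 33.3% as higher and 35.1% as lower, and the median over all genes was -0.04. Slc1a3, the glutamate transporter GLAST, stood at 3881 and 3409 counts per 1000000 UMIs of the cells (CPM) in control and tomatidine astrocytes, against 120 and 129 CPM in the other cells (log2 fold change 5.05 ± 0.19 SE, adjusted p = 1.52e-11). Gfap, the intermediate filament that rises in reactive astrocytes, stood at 2612 and 2866 CPM against 109 and 97.2 CPM in the other cells. Sox9, a transcription factor of the glial lineage, stood at 522 and 438 CPM against 20.7 and 20.4 CPM. For each of these genes the 2 libraries lay far closer to each other than to the other cells.

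The 12 genes with the largest astrocyte folds gave a mixed picture. Among them, 10 were not cilium genes, among them Myoc (myocilin, 7.68), Thbs4 (a thrombospondin, 6.21), Agt (5.67), Slc14a1 (a urea transporter, 5.61), Lcat (the enzyme that esterifies cholesterol on lipoproteins, 5.46) and Entpd2 (an enzyme that breaks down extracellular ATP, 5.43), all as log2 fold changes. The other two were Tmem212 (6.62) and Ccdc153 (6.03), which mark ependymal cells. Of the kept cells, 32 and 31 had 3 or more UMIs of the ependymal genes Foxj1, Ccdc153, Tmem212 and Dynlrb2. In addition, 71 and 112 had 3 or more UMIs of fibroblast collagen and proteoglycan genes. In 394 and 462, transcripts of neurons, microglia or endothelium (Snap25, Syt1, C1qa, C1qb, Cldn5) exceeded 1/3 of the astrocyte sum. Without all of these cells 838 and 1072 remained, called core astrocytes below, a restriction chosen after the values were seen. In core astrocytes the log2 folds of Myoc (7.68), Thbs4 (6.83) and Agt (6.10) were at least as large, and those of Tmem212 and Ccdc153, which the restriction used, were 0.29 and -0.04.

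**Figure D1:**
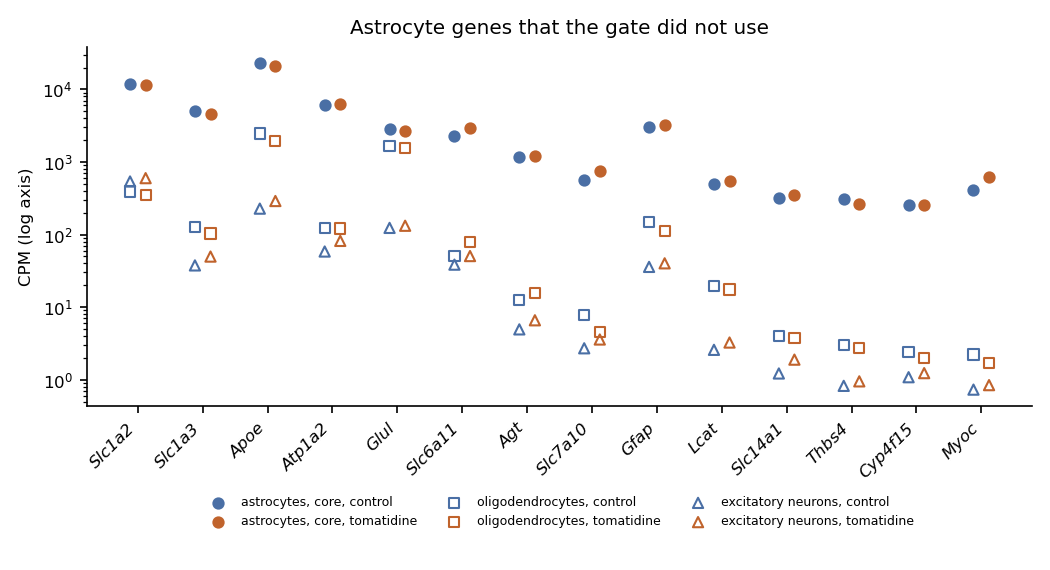
CPM (log axis) of 14 genes that were not used to choose the cells, in core astrocytes (filled circles), oligodendrocytes chosen by Mog and Mag (squares) and excitatory neurons chosen by Slc17a7 (triangles), each in the control (blue) and the tomatidine library (orange), 1 library a point. For each gene the core astrocytes lie above both other cell types in both libraries. The narrowest gap is that of Glul (2876 and 2641 CPM in core astrocytes, 1659 and 1553 CPM in oligodendrocytes).

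The thresholds cut through a continuum of cells. The lowest sums inside the gate were 15.1 and 15.2 per 10000 UMIs in the control and tomatidine libraries, and the highest just outside were 14.98 and 14.93, where the medians inside were 67.4 and 72.6. A further 693 and 687 cells failed on the ratio to other cell types alone. Of control cells 8.25% (7.82 to 8.68%) were astrocytes, and of tomatidine cells 10.9% (10.4 to 11.4%), which is 2.62 percentage points (1.97 to 3.28) more. Core astrocytes were 5.27% and 7.06% of cells. Other cell classes moved too, since oligodendrocytes were 19.4% and 16.1% of cells and neurons with Tcf7l2 and Slc17a6, genes of thalamic neurons, were 5.25% and 7.44%. The part of these shifts in the astrocyte share was not tested.

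Detection of Ttr differed between the libraries in each cell class examined. Ttr, which encodes transthyretin and is made by the choroid plexus, was detected in 87.5% of control and 24.5% of tomatidine astrocytes. It was also detected in 85.6% and 20.3% of oligodendrocytes and in 91.1% and 26.5% of excitatory neurons, cells that should lack it, at median depths of 5739 and 5431 UMIs for oligodendrocytes and 18652 and 17061 for neurons. In core astrocytes Ttr was at 1350 and 107 CPM.

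The subset genes themselves stood above this background. Slc7a10 was detected in 66.1% of control and 74.3% of tomatidine core astrocytes (median depths 4413 and 4449 UMIs), against 3.53% and 3.64% of oligodendrocytes. Agt was detected in 72.2% and 75% of core astrocytes, against 8.01% and 10.5% of oligodendrocytes. Slc6a11 was detected in 91.5% and 96.5%, against 22.9% and 33.5% of oligodendrocytes. Thinned to 2000 UMIs a cell, core astrocytes had Slc7a10 in 57.0% and 66.2% and oligodendrocytes in 1.37% and 1.26%.

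Most astrocytes had more UMIs of Agt plus Slc6a11 than of Slc7a10. The probes of these genes can differ in yield, so the shares are shares of UMIs and not of molecules in the cell. Of the cells with at least 5 UMIs of the 3 genes together, 673 of 884 in the control and 978 of 1304 in the tomatidine library had a share of Agt plus Slc6a11 of 0.75 or more. These were 76.1% (73.2 to 78.9%) and 75% (72.6 to 77.3%), a difference of -1.13 points (-4.75 to 2.57). Only 3 and 6 cells had a share of 0.25 or less, and 208 and 320 lay between. Between these subsets edgeR called 0 of 12053 genes, where 428 had an unadjusted p under 0.05 and DESeq2 called 1143. Slc6a11 was detected in most astrocytes of both libraries, as given above, and the right panel of the share plot shows the resulting pile-up near 1.

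Agt against Slc7a10 alone spread the cells over the whole range, and this division, added after the values were seen, is used below. Of cells with at least 5 UMIs of Agt plus Slc7a10, 128 of 582 in control (21.99%) and 220 of 885 in tomatidine (24.9%) had an Agt share of 0.25 or less and are called Slc7a10-rich. A share of 0.75 or more, called Agt-rich, was found in 232 (39.9%, 35.9 to 44.0%) and 320 (36.2%, 32.99 to 39.4%), and 222 and 345 cells were mixed. The Agt-rich share differed by -3.70 points (-8.79 to 1.35), an interval that includes 0. The interval did not include 0 in core astrocytes (-5.58, -11.2 to -0.043), with a ratio of 10 to other cell types in the gate (-6.18, -12.2 to -0.20) or with cuts at 0.1 and 0.9 (-6.86, -11.1 to -2.76). Thinned to 2000 UMIs a cell, which left out 289 and 269 cells, the Agt-rich shares were 55.2% and 43.3% and differed by -11.9 points (-20.0 to -3.72). Thinned to 4000 UMIs, which left out 653 and 716 cells, they were 43.1% and 37.8%, and the interval of the difference included 0 (-5.32, -12.6 to 1.97). The median depths of Slc7a10-rich cells were 8262 and 5553.5 UMIs and those of Agt-rich cells 6162.5 and 6113. The cuts fall in a populated range, with 49 and 82 cells within 0.05 of the lower one and 54 and 87 within 0.05 of the upper one, so the subsets are ranges of a share that rests on as few as 5 UMIs a cell, and whether they are separate types was not tested.

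**Figure D2:**
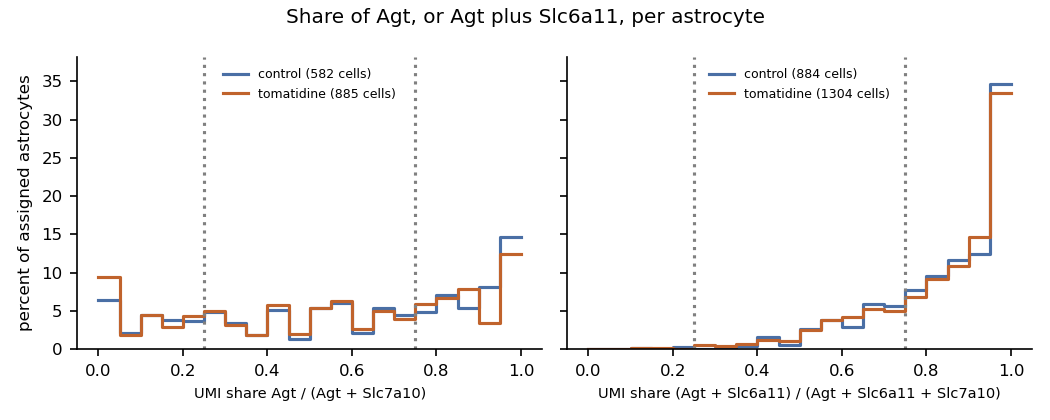
Percent of assigned astrocytes (y axis) by the share of Agt in Agt plus Slc7a10 UMIs (left) and of Agt plus Slc6a11 in all 3 genes (right), in bins of 0.05, for the control (blue) and tomatidine (orange) libraries; dotted lines mark the cuts at 0.25 and 0.75. On the left cells fill the range, with 21.99% and 24.9% at or below the lower cut, and on the right 76.1% and 75% lie at or above the upper one.

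The subsets differed widely in genes that the division did not use. UMIs were summed per subset and library and tested with edgeR, with library as a block, so that the 2 libraries served as the replicates. With 1 residual degree of freedom, the spread between libraries was estimated over many genes together. A small p-value therefore does not show that the libraries agreed on a gene. In core cells Vtn had log2 folds of 0.89 in control and 3.62 in tomatidine, and an edgeR adjusted p of 5.6e-22. In core astrocytes 108 and 195 cells were Slc7a10-rich and 164 and 208 were Agt-rich. Of 10938 genes 1180 were called (10.8%), 594 as higher in Agt-rich cells (5.43%) and 586 as higher in Slc7a10-rich cells (5.36%). Of the 1180, 1173 had the same direction in both libraries, but the calls were made from those libraries, so this is no separate replication. DESeq2 called 194, of which 193 were among the edgeR calls. Over all kept astrocytes edgeR called 1559 of 11945 genes (13.1%), of which 877 (7.34%) were higher in Agt-rich and 682 (5.71%) in Slc7a10-rich cells. In both sets 830 genes were called with the same direction. Ependymal markers moved with the division of all kept cells, at a summed 78.4 and 70.5 CPM in Slc7a10-rich and 611 and 680 CPM in Agt-rich cells. Cilium genes such as Tmem212 (log2 fold change 8.43) were among the largest Agt-rich folds there. Without cells with 3 or more ependymal UMIs 1341 genes were called, 698 and 643. The part of this RNA in the calls was not tested.

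Genes of regional identity split between the subsets. Of 7 telencephalic regional genes tested, 5 were higher in Slc7a10-rich cells and 0 in Agt-rich cells, with a median log2 fold change (Agt-rich over Slc7a10-rich) of -0.96, where 5.36% and 5.43% of all genes were called in these directions. Of 11 genes of regions outside the telencephalon, 9 were higher in Agt-rich cells and 1 in Slc7a10-rich cells, with a median of 1.62. Both lists were chosen with earlier results of these data known, so these counts are a description. Over all genes tested the median was 0.00. Adjusted p-values here and in the next paragraphs are from edgeR's quasi-likelihood test with Benjamini-Hochberg adjustment.

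Emx2, a homeobox gene of the dorsal telencephalon, stood at 76.4 and 85.3 CPM in Slc7a10-rich core cells of the control and tomatidine libraries and at 21.5 and 24.99 CPM in Agt-rich cells (log2 fold change -1.79 ± 0.21 SE, adjusted p = 6.09e-15). Both Agt-rich values lay below both Slc7a10-rich values, and the mixed cells, at 48.2 and 47.2 CPM, lay between. Lhx2, a LIM homeobox gene of the cortex, was lower by a smaller margin, with 338 and 298 CPM against 167 and 163 CPM (-0.94 ± 0.12). Mfge8, a secreted protein that bridges phagocytes to dying cells and marks cortical astrocytes, stood at 2417 and 2668 CPM against 1204 and 1130 CPM (-1.12 ± 0.12).

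Among genes of regions outside the telencephalon, large folds were found in the Iroquois family, homeobox genes of diencephalon, midbrain and hindbrain. Irx1 had 2 and 9 UMIs in Slc7a10-rich cells against 56 and 32 in Agt-rich cells, and Irx5 had 1 and 3 against 27 and 33. Irx2 and Irx3 had 0 UMIs in Slc7a10-rich cells of the control library, with 9 and 6 in the tomatidine library, so their fitted folds (3.13 and 3.29) depend on the prior count. DESeq2 did not call Irx2. Otx2, a homeobox gene of the forebrain and midbrain, stood at 4.60 and 5.55 CPM against 34.5 and 44.1 CPM (2.94 ± 0.37, adjusted p = 2.99e-13). Sparc, a secreted matrix protein, stood at 990 and 927 CPM against 2598 and 3146 CPM (1.58 ± 0.12, adjusted p = 5.00e-37). Zic1, a zinc finger gene of dorsal and caudal regions, was less even, with 59.8 and 16.0 CPM against 148 and 74.96 CPM (1.62 ± 0.18). Olig2, a transcription factor of oligodendrocytes and of some astrocytes, went the other way with -0.85 ± 0.17. Transcripts of thalamic neurons moved with the division, since 5 markers summed to 271 and 307 CPM in Slc7a10-rich and to 556 and 475 CPM in Agt-rich core cells, with Rora at 109 and 117 CPM in the former and Tcf7l2 the most abundant at 160 and 150 CPM in the latter. None of these markers was at 0, and the part of this RNA in the regional genes was not tested.

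**Figure D3:**
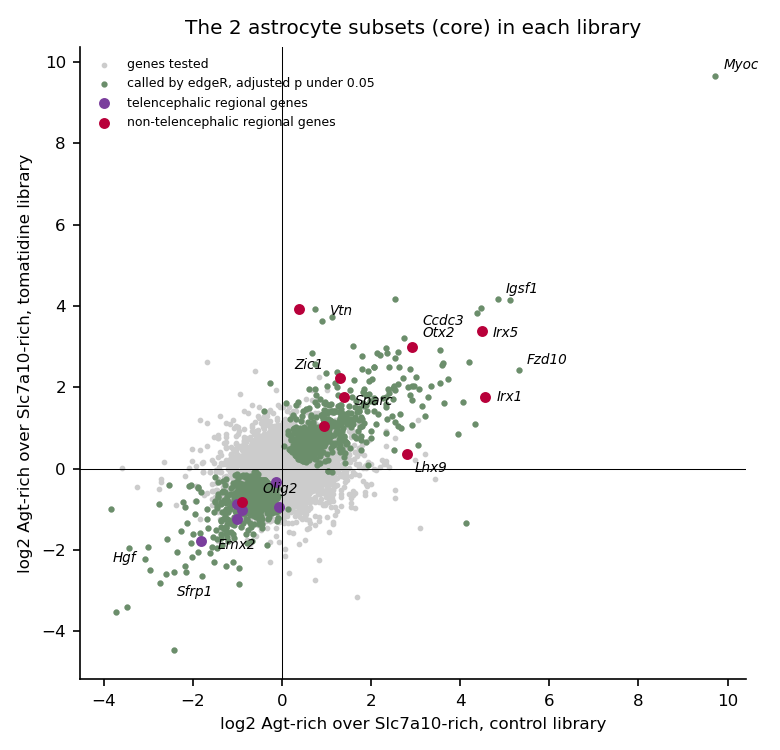
Log2 ratio of CPM, Agt-rich over Slc7a10-rich core astrocytes, in the control library (x axis) and the tomatidine library (y axis), for genes tested by edgeR (grey), genes called at an adjusted p under 0.05 (green) and the telencephalic (purple) and non-telencephalic (red) regional genes. Genes with 0 UMIs in a subset of either library, such as Irx2, Irx3 and Ano1, cannot be drawn. Emx2 lies at the lower left and Irx1, Irx5 and Otx2 at the upper right.

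Of the 12 genes with the largest fold in Agt-rich core cells, Myoc stood apart. It had 1 and 3 UMIs in Slc7a10-rich cells and 1018 and 2558 in Agt-rich cells, 781 and 1682 CPM (log2 fold change 9.61 ± 0.25). Its mixed cells were uneven, at 1.15 CPM in the control and 183 CPM in the tomatidine library. Most of its UMIs lay in few deep cells, since 28 and 40 core cells with 10 or more Myoc UMIs, called Myoc-rich after the values were seen, held 96.2% and 97.8% of them. Their median depths were 14229 and 12472 UMIs, against 4217 and 4348.5 in the rest. Of these cells 13 and 23 were Agt-rich and 0 Slc7a10-rich. Without them edgeR called 1046 of 10639 genes between the subsets, of which 882 were also called with them in the same direction. Next came Ano1 (a calcium-activated chloride channel, 6.26), whose Slc7a10-rich cells had 0 and 1 UMI, Igsf1 (4.41) and Serpinf1 (pigment epithelium-derived factor, 4.40). Ccdc3 (4.13), Fzd10 (a Wnt receptor, 3.35), Baiap3 (3.23), Vtn (vitronectin, 2.98), Otx2, Emb (2.93), Col9a2 (2.84) and Ucp2 (a mitochondrial uncoupling protein, 2.76) completed them. The control and tomatidine libraries alone gave different folds for Fzd10 (5.31 and 2.43), Baiap3 (4.20 and 2.62) and Col9a2 (3.72 and 2.21). Vtn was uneven, with 8.28 and 9.71 CPM in Slc7a10-rich and 15.4 and 120 CPM in Agt-rich cells, so the tomatidine library carried the call. Vtn is also a marker of pericytes. Endothelial markers in Agt-rich core cells summed to 13.8 CPM in the control and 143 CPM in the tomatidine library, led there by Cldn5. The core restriction used Cldn5 and the gate used Flt1, so the endothelial sums are a description. Mural markers, Vtn included, summed to 114 and 278 CPM in Agt-rich core cells, with 6 of 6 higher in tomatidine. The part of endothelial and mural RNA in the Vtn call was not tested. DESeq2 did not call Fzd10 or Vtn. Without Myoc-rich cells all 12 were still called, with smaller folds of 4.12 for Myoc, which chose those cells, and of 2.55 for both Serpinf1 and Ccdc3.

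Of the 12 genes with the largest fold in Slc7a10-rich core cells 4 are given first. Igfbp2, which binds insulin-like growth factors, stood at 307 and 241 CPM in Slc7a10-rich and at 69.1 and 41.4 CPM in Agt-rich cells (-2.33 ± 0.14, adjusted p = 5.82e-58). Hgf, hepatocyte growth factor, stood at 66.2 and 52.0 CPM against 8.44 and 9.21 CPM (-2.71 ± 0.29, adjusted p = 6.90e-18). Sfrp1, a secreted inhibitor of Wnt signalling, had a fold of -2.76 and Chrdl1, a secreted BMP antagonist that matures synapses, of -1.96. Kirrel2 (-2.58), Lama3 (a laminin chain, -2.34), Ranbp3l (-2.15), Tnfsf13 (-2.08), Eogt (-1.91, not called by DESeq2), Etv4 (-1.84) and Emx2 were the others beside Pdgfra (-2.28). Pdgfra is the receptor that marks oligodendrocyte precursors and was used in the gate, so its fold is a description. The 6 precursor markers, Pdgfra included, summed to 331 and 339 CPM in Slc7a10-rich and 172 and 143 CPM in Agt-rich core cells. Olig1 was the most abundant in both and none was at 0, and the part of these markers in the 12 genes was not tested. In 21 of these 24 genes at both ends the mixed cells lay between the subsets. The genes were chosen by their fold and the mixed cells by a share in between, so this count is a description.

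Transport and signalling genes differed between the subsets in both directions. Of 26 genes of amino acid transport and metabolism, 7 were higher in Agt-rich and 6 in Slc7a10-rich core cells, where 5.43% and 5.36% of all genes were. Over all kept astrocytes 4 and 5 were (7.34% and 5.71% over all genes). The list holds Slc25a18, which chose the cells and is given as a description, with a log2 fold change of 0.54 in core cells. Slc6a11 itself, which this division did not use, stood at 1787 and 1817 CPM in Slc7a10-rich and 4036 and 4794 CPM in Agt-rich cells (1.29 ± 0.12). Slc6a9, the glycine transporter GlyT1, stood at 121 and 130 CPM against 340 and 374 CPM (1.52 ± 0.12). Slc38a1, a glutamine transporter, stood at 93.9 and 88.1 CPM against 361 and 389 CPM (2.06 ± 0.13). For each of these genes both Agt-rich values lay above both Slc7a10-rich values.

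On the Slc7a10-rich side were the glutamate transporters. Slc1a3 stood at 6666 and 5710 CPM against 3496 and 3271 CPM (-0.86 ± 0.13), and Slc1a2, GLT-1, had a fold of -0.49 ± 0.15. Gldc, the glycine-cleaving enzyme, stood at 317 and 258 CPM against 133 and 109 CPM (-1.25 ± 0.12). Slc38a3, a glutamine exporter, had -0.86 ± 0.11. Glul, glutamine synthetase, had -0.14 ± 0.12 and was not called.

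Among receptors, Gria1 (172 and 212 CPM in Slc7a10-rich cells, 451 and 534 CPM in Agt-rich cells, 1.36 ± 0.12) and Gabbr2 (a GABA-B receptor subunit, 1.29 ± 0.12) were higher in Agt-rich cells. Gria2 (-1.23 ± 0.11) and Grm3 (a metabotropic glutamate receptor, -1.12 ± 0.11) were higher in Slc7a10-rich cells. The AMPA receptor subunits Gria1 and Gria2 therefore went opposite ways in both libraries. Of 24 receptor and calcium signalling genes, 6 were higher in Agt-rich and 3 in Slc7a10-rich core cells (5.43% and 5.36% over all genes). Over all kept astrocytes 6 and 8 were (7.34% and 5.71% over all genes), so the balance of these counts turned with the cells kept.

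Of 19 genes of potassium, water and coupling, 4 were higher in Agt-rich and 3 in Slc7a10-rich core cells (5.43% and 5.36% over all genes). Over all kept astrocytes 3 and 4 were (7.34% and 5.71% over all genes). The list holds Aqp4, Gja1 and Mlc1, which chose the cells and are given as a description. Aqp4 stood at 934 and 1003 CPM in Slc7a10-rich and 2623 and 2585 CPM in Agt-rich cells, a log2 fold change of 1.43, where Gja1 had 0.09 and Mlc1 -0.14. Kcnj10, the potassium channel Kir4.1, which the gate did not use, had 0.57 ± 0.11. Of 22 synaptogenic, engulfment and secreted factors 7 were higher in Agt-rich and 6 in Slc7a10-rich core cells (5.43% and 5.36% over all genes), and over all kept astrocytes 5 and 8 of 23 (7.34% and 5.71%). Without Myoc-rich cells they were 5 and 8 of 22 (4.83% and 5% over all genes). Mertk, an engulfment receptor (-1.25 ± 0.11), Thbs4 (-1.37 ± 0.12) and the glypican Gpc5 (-0.99 ± 0.11) were on the Slc7a10-rich side and Tnc, tenascin C (2.42 ± 0.21), on the Agt-rich side. Slco1c1, a thyroid hormone transporter, was at 455 and 458 CPM in Slc7a10-rich and 166 and 118 CPM in Agt-rich cells (-1.70 ± 0.12).

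Of 12 pan-reactive genes 5 were higher in Agt-rich and 2 in Slc7a10-rich core cells (5.43% and 5.36% over all genes), with a median of 0.45. These counts rested on the Myoc-rich cells, since without them 1 of 10 was higher in Agt-rich and 4 in Slc7a10-rich cells (4.83% and 5% over all genes), with a median of -0.15. Gfap stood at 2265 and 2057 CPM in Slc7a10-rich and 3868 and 4956 CPM in Agt-rich cells (1.02 ± 0.13, adjusted p = 3.99e-14). The Myoc-rich cells held 10896 and 14300 CPM of Gfap, and without them Agt-rich cells had 2236 and 2121 CPM, a log2 fold change of -0.0041 ± 0.09 (adjusted p = 0.989). Of 13 mitochondrially encoded genes 10 were higher in Agt-rich core cells (5.43% over all genes), with a median of 0.34. But over all kept astrocytes 0 of 13 were called (7.34% over all genes), with a median of 0.23. In core cells without Myoc-rich cells 7 were higher in Agt-rich cells (4.83% over all genes). Of 20 immediate early genes 0 were higher in Agt-rich and 7 in Slc7a10-rich core cells (5.43% and 5.36% over all genes), among them Ccn1 (-1.50 ± 0.16) and Dusp6 (-1.30 ± 0.17). Over all kept astrocytes 3 and 7 of 24 were (7.34% and 5.71% over all genes). The 6 excitatory neuron markers summed to 3411 and 2934 CPM in Slc7a10-rich and 2349 and 2374 CPM in Agt-rich core cells, with Camk2a the most abundant and none at 0, and their part in the immediate early genes was not tested. Among them Slc17a7 was used in the gate and Snap25 and Syt1 in the core restriction, so these sums are a description. Of 25 genes of cholesterol synthesis and lipoproteins 1 was called in each direction, near the 5.43% and 5.36% over all genes. Without Myoc-rich cells 0 were higher in Agt-rich and 4 in Slc7a10-rich cells (4.83% and 5% over all genes).

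Few genes of astrocytes were 1.5-fold or more apart between tomatidine and control. Of 11930 genes with at least 100 UMIs, 379 (3.18%) were 1.5-fold or more apart, 196 higher (1.64%) and 183 lower (1.53%) with tomatidine, and the median log2 ratio was 0.022. In core astrocytes 195 of 10649 genes (1.83%) were past this fold, 124 higher (1.16%) and 71 lower (0.667%), with a median of 0.028. The counting interval lay above 0 for 11.7% and below 0 for 7.89% of core genes. These counts describe 2 libraries.

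Over all kept astrocytes the genes at the lower end included several known from other cells. Ttr was lowest (1945 CPM in control, 123 CPM in tomatidine, log2 ratio -3.99), and the others were Tac2, Vip (neuropeptides), F5, Ucma, Hbb-bt (a globin), H2-Ab1, H2-Aa and Cd74 (antigen presentation), Spp1, Wfikkn2 and Lbhd2. Of these 12, 6 had 50% or more of their UMIs in 1 control cell, as did 112 of 11930 genes in either library. For Vip that cell held 82.3%. At the upper end stood Tfap2b (2.63), Mab21l1, Gata3, Glra1, Ubap1l, Tal1, Kazald1, AW551984, Bnc2, Cartpt, Ptx3 and Slc22a2. Gata3 and Tal1 are transcription factors of midbrain and hindbrain neurons, with 17 and 22 UMIs in control and 115 and 87 in tomatidine astrocytes. Most of these genes were also higher outside astrocytes, 11 of the 12 in oligodendrocytes and 10 in excitatory neurons, where 59.8% and 62.6% of all genes were higher. Tfap2b had log2 ratios of 3.44 in oligodendrocytes and 3.52 in neurons, Bnc2 (1.48 in astrocytes) 4.71 and 3.54, and Gata3 (2.44 in astrocytes) 1.94 and 1.71.

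In core astrocytes Ttr stayed lowest (-3.66). Of the others at the lower end, Kl (klotho, 21.2 and 4.68 CPM, -2.18) and Enpp2 (autotaxin, 366 and 181 CPM, -1.02, interval -1.12 to -0.91) are also made by the choroid plexus. All 6 choroid plexus markers were lower, with a summed 1402 CPM in control and 125 CPM in tomatidine, led by Ttr. Their part in these ratios was not tested. Sgk1, a kinase induced by glucocorticoids, stood at 86.7 and 39.2 CPM (-1.14, -1.37 to -0.92), Zic1 at 80.9 and 40.3 CPM (-1.01, -1.23 to -0.79) and Il17rd, an inhibitor of FGF signalling, at 17.1 and 6.49 CPM (-1.39). Pomc, Lrrc55, Ecrg4, Prkcq, Ly86 and Ace made up the rest, with ratios from -1.74 to -0.99. Of the 12 genes 3 had 20% or more of their UMIs in 1 control cell (Pomc 44.6%, Lrrc55 38.2%, Prkcq 22.6%), as did 48 of 10649 genes in either library. Ecrg4 was at 19.4 and 1.58 CPM in oligodendrocytes (-3.62). Of these 12 genes 9 were also lower in oligodendrocytes and 11 in excitatory neurons, where 40.2% and 37.4% of all genes were.

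At the upper end in core astrocytes stood Tagln (2.69 and 14.6 CPM, 2.44), Mgp (1.75), Myl9 (1.44), Tm4sf1 (1.49) and Tpm2 (1.12), beside C3 (complement component 3, 5.92 and 20.8 CPM, 1.81) and Lcn2 (lipocalin 2, 6.999 and 15.1 CPM, 1.11). Sfrp5, a secreted Wnt inhibitor, was the most abundant of the 12 at 52.4 and 119 CPM (1.18, 0.99 to 1.38). Coro6, Rpe65, Vtn (1.05) and Gpr17, a gene of differentiating oligodendrocyte precursors (1.04), completed them. Over all kept astrocytes C3 (-0.32, -0.51 to -0.14) and Tm4sf1 (-0.40, -0.57 to -0.24) were lower with tomatidine, so their direction turned with the cells kept. The intervals of Tpm2 (-0.30, -0.62 to 0.03), Lcn2 (-0.31, -0.63 to 0.0037) and Mgp (-0.0028, -0.15 to 0.15) included 0 there. In oligodendrocytes 8 of the 12 were higher and in excitatory neurons 12 (59.8% and 62.6% over all genes). Of the 12 genes, 8 had 20% or more of their UMIs in 1 cell of a library, as did 48 of 10649 genes. Mural markers summed to 187 and 253 CPM in core astrocytes, with 5 of 6 higher, Pdgfrb the most abundant and none at 0. Endothelial markers summed to 38.9 and 62.3 CPM, with 5 of 5 higher and Flt1 the most abundant. Flt1 was used in the gate and Cldn5 in the core restriction, so the endothelial sums are a description. The part of mural and endothelial RNA in the 12 genes was not tested.

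Genes of cholesterol synthesis stood together on the higher side. Of 25 genes of cholesterol synthesis and lipoproteins, 21 were higher with tomatidine in core astrocytes, 15 with an interval above 0 (11.7% over all genes), and 4 were lower with an interval below 0 (7.89% over all genes). The median log2 ratio was 0.25, against 0.028 over all genes. Insig1, which holds the sterol sensor in the endoplasmic reticulum, stood at 373 and 516 CPM (0.47, 0.39 to 0.55) and Mvk, mevalonate kinase, at 57.4 and 79.6 CPM (0.47, 0.27 to 0.68). Fdft1, squalene synthase, stood at 236 and 310 CPM (0.40, 0.30 to 0.50).

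The 4 lower genes were genes of lipoproteins and of cholesterol efflux. Not every lipoprotein gene was lower, since Lcat stood at 505 CPM in control and 543 CPM in tomatidine core astrocytes. Apoe was at 22862 and 21284 CPM (-0.10, -0.11 to -0.09) and Clu, clusterin, at 9948 and 8941 CPM (-0.15, -0.17 to -0.14). The whole list, with Apoe and Clu its most abundant members, summed to 37010 CPM in control and 35090 CPM in tomatidine core astrocytes, so its total was lower. The cholesterol exporters Abca1 and Abcg1 had -0.18 (-0.29 to -0.07) and -0.49 (-0.91 to -0.08). In Slc7a10-rich core cells 17 of 22 members were higher (median 0.35, 57.1% over all genes) and in Agt-rich core cells 18 of 23 (median 0.18, 49.9% over all genes). Without Myoc-rich cells 21 of 25 were higher in core astrocytes (median 0.23), but 10 of 21 were higher in Agt-rich cells (median -0.0074). In oligodendrocytes 15 of 25 were higher (median 0.05), near the 59.8% of all genes (median 0.05). In excitatory neurons 19 of 25 were higher (median 0.07), where 62.6% of all genes were (median 0.04). No member was 1.5-fold apart in core astrocytes.

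**Figure D4:**
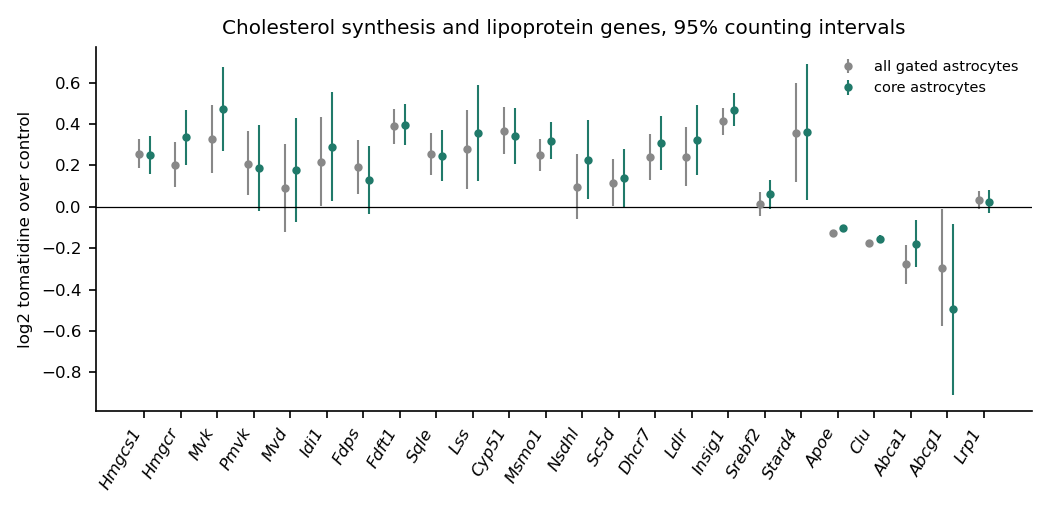
Log2 ratio of CPM, tomatidine over control, for 24 of the 25 list members of cholesterol synthesis and lipoproteins in all kept astrocytes (grey) and core astrocytes (green), with 95% intervals for counting error from 1 library a group. The synthesis genes lie above 0, with Insig1 at 0.47 in core astrocytes, and Apoe, Clu, Abca1 and Abcg1 lie below.

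All 13 mitochondrially encoded genes were lower with tomatidine in core astrocytes, each with an interval below 0 (7.89% over all genes), and with a median of -0.26 against 0.028 over all genes. mt-Co3, a subunit of cytochrome oxidase, stood at 941 and 691 CPM (-0.45, -0.50 to -0.39) and mt-Nd1, a subunit of complex I, at 1471 and 1277 CPM (-0.20, -0.25 to -0.16). The list summed to 16510 and 13680 CPM. It was lower in Slc7a10-rich (median -0.32) and Agt-rich core cells (-0.43). In oligodendrocytes 13 of 13 were lower (-0.13), where 40.2% of all genes were. In excitatory neurons 11 of 13 were higher (0.06), where 62.6% of all genes were, with a median of 0.04.

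The other lists of astrocyte function had smaller medians. The median log2 ratio in core astrocytes was -0.07 for the 24 identity genes, -0.09 for amino acid transport and metabolism, 0.04 for potassium, water and coupling and -0.06 for glycolysis, glycogen and lactate, none with a member 1.5-fold apart. Of 21 glycolysis genes 7 had an interval below 0 and 0 above it (7.89% and 11.7% over all genes). The glycolysis median was -0.21 in Slc7a10-rich core cells, and in oligodendrocytes 18 of 22 were higher (0.14, 59.8% over all genes). Slc7a10 stood at 561 and 743 CPM (0.40, 0.34 to 0.47), Slc6a11 at 2273 and 2983 CPM (0.39, 0.36 to 0.42) and Agt at 1163 and 1189 CPM (0.032, -0.02 to 0.08). In oligodendrocytes, where these read as background, Slc6a11 was at 49.99 and 79.1 CPM and Slc7a10 at 7.71 and 4.52 CPM. Itih3, a gene of the non-telencephalic list, stood at 432 and 640 CPM (0.57, 0.50 to 0.64), while Zic1 of the same list was lower, so that list did not move one way (7 higher, 3 lower). Ntsr2, a neurotensin receptor of astrocytes, stood at 1092 and 1297 CPM (0.25, 0.20 to 0.30), and the purinergic receptor P2ry1 had 0.61. The medians of the telencephalic, A1-type reactive, immediate early, heat shock, ATF4 and stress response, Nrf2 and redox, synaptogenic and receptor lists lay between -0.12 and 0.07, and the A2-type reactive list had 2 measured members.

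Reactive and inflammatory genes were mixed. Of 12 pan-reactive genes in core astrocytes 7 were higher, near the 56.7% over all genes, and 5 lower, with Vim, vimentin, at 603 and 469 CPM (-0.36, -0.43 to -0.29), Serpina3n at 277 and 233 CPM (-0.25, -0.35 to -0.15) and Gfap at 3054 and 3210 CPM (0.07, 0.04 to 0.10). Their median was 0.12 in core astrocytes and -0.22 over all kept astrocytes, and -0.18 in core astrocytes without Myoc-rich cells, so its sign rested on which cells were kept. Gfap turned too, with 2363 and 2062 CPM without Myoc-rich cells (-0.20, -0.23 to -0.16). Of 20 interferon response genes 12 were lower (median -0.06, -0.18 without Myoc-rich cells), where 43.3% of all core genes were, and 22 of 27 were lower over all kept astrocytes (median -0.20, 44.5% over all genes). Few had 100 UMIs in the subsets. In Slc7a10-rich core cells 4 of 4 were lower (median -0.37, 42.9% over all genes). In Agt-rich core cells 7 of 7 were higher (0.25, 49.9% over all genes), and the difference between subsets was not tested. Without Myoc-rich cells 3 of 4 were higher in Agt-rich core cells, 0 of them with an interval above 0. In oligodendrocytes 22 of 23 were lower (median -0.56, 40.2% over all genes), and in excitatory neurons 9 of 25 (0.05), near the 37.4% over all genes. All 6 microglia markers were lower in core astrocytes, with a summed 402 and 314 CPM and none at 0, and their part in the interferon genes was not tested. The core restriction had limited the microglia genes C1qa and C1qb, so these sums are a description. Of 22 glucocorticoid response genes 14 were lower (median -0.06, 43.3% over all genes), led by Sgk1 and by Cebpd, a transcription factor, at 68.7 and 46.3 CPM (-0.57, -0.79 to -0.35). In oligodendrocytes 20 of 21 were lower (median -0.37, 40.2% over all genes), with Sgk1 at 1073 and 442 CPM (-1.28). In excitatory neurons 10 of 21 were lower (median 0.012, 37.4% over all genes).

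Cdkn1a, which encodes p21, was detected in 5.56% of control and 4.48% of tomatidine astrocytes and in 2.12% and 1.48% after thinning to 2000 UMIs. In oligodendrocytes it was detected in 5.51% and 3.68%, and in 1.69% and 1.03% after thinning. In excitatory neurons it was detected in 12.2% and 13.2%, and in 1.46% and 1.71% after thinning. Cdkn2a, which encodes p16, had 10 and 5 UMIs over all astrocytes, too few to compare.

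**Figure D5:**
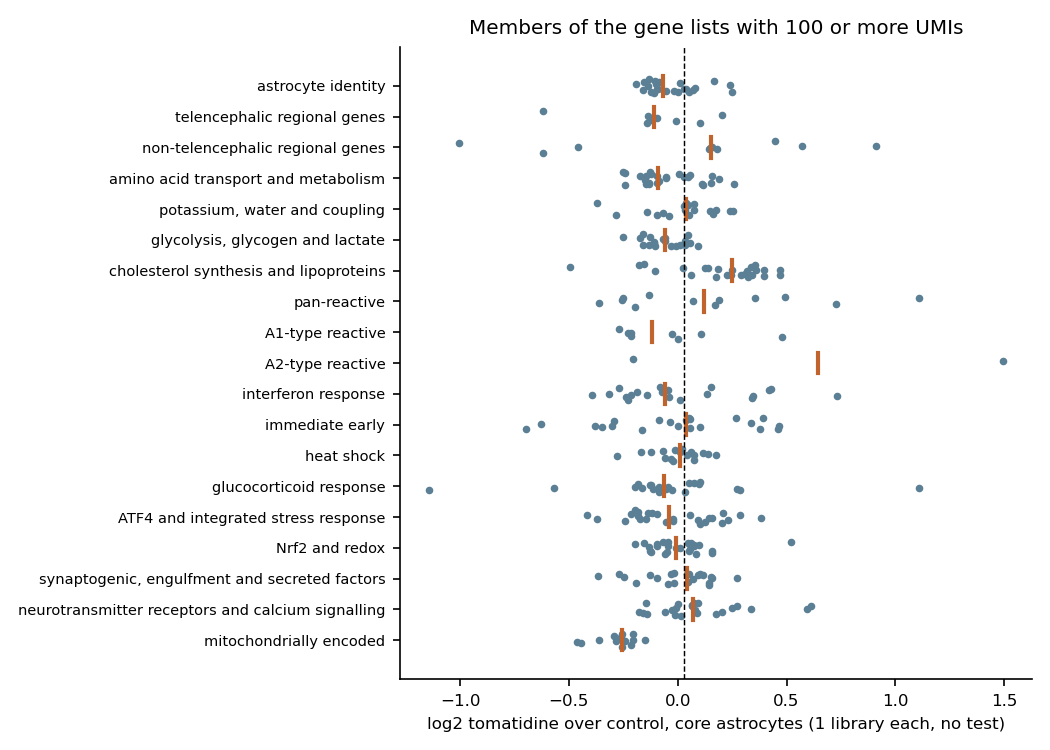
Log2 ratio of CPM, tomatidine over control, in core astrocytes for the members of 19 gene lists with 100 or more UMIs (points), with each list's median (orange bar) and the median of all genes (dashed line, 0.028). The cholesterol list lies to the right (median 0.25) and the mitochondrially encoded genes to the left (median -0.26); each value comes from 1 library a group.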

How the data were processed

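Fixed cells of pooled hippocampus were profiled with a probe-based 10x assay. Per the study's methods, reads were mapped against mm10, and the authors deposited 1 filtered table of counts per library (UMIs per gene and cell, not normalized, 19059 genes); the processing notes name Cell Ranger 8.0.0, and the deposited matrix header names 7.1.0. A probe assay measures only probed positions, so a difference in level between genes, the Agt and Slc7a10 shares included, also holds the yield of their probes. The study's integrated clusters were not used.

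Cells with 500 or more UMIs were gated. Scrublet (scanpy 1.11.5) called 0 and 3 doublets unaided; its call was not used, and leaving out the top 2% of scores was an alternative. The members and lists were chosen with earlier results of these data known; the core restriction, the Agt division and the Myoc-rich cells followed sight of the values. For tomatidine against control, UMIs were summed per library; log2 CPM ratios have exact conditional binomial intervals, shares exact binomial (Clopper-Pearson) and differences Newcombe intervals, all for counting error. Genes needed 100 UMIs over both libraries. Subsets, and astrocytes against other cells, were tested on 4 sums with edgeR 4.0.16 (quasi-likelihood, TMM, filterByExpr, library block, 1 residual degree of freedom, Benjamini-Hochberg, 0.05). The tested contrasts left out the genes that defined them.

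Named genes are those of the gate and subsets, list members, the 12 at each end of the tomatidine ratio and of the subset fold (100 or more UMIs, same direction in both libraries), and the 12 largest astrocyte folds (1000 or more UMIs). On simulated counts of 10433 genes for the core subsets, edgeR recovered 77% of 3-fold and 11% of 1.5-fold changes with 1 false call; DESeq2 1.42.0 recovered 43% and 4%. On 13479 genes for astrocytes against other cells, edgeR recovered 54% of 1.5-fold changes with 10 false calls. In these simulations each gene had the same fold in both libraries and all genes the same dispersion. Folds of the data differed between libraries for some genes, such as Fzd10 and Vtn, so the simulated false calls do not bound those of the data. Some list members are counted but not reported here by name. Promoters are from RefSeq (GRCm38.p6).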

Additional observations from a re-analysis of the deposited data

Results flagged for a closer look

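For 4 genes the ratio of tomatidine to control had opposite signs in Slc7a10-rich and Agt-rich core astrocytes, with counting intervals on opposite sides of 0; with 1 library per group the difference was not tested. They were 4 of 103 genes examined (3.88%), and of all 10645 genes with 100 or more UMIs in core astrocytes 48 (0.451%) met the same criterion. Gfap had a log2 ratio of -0.14 in Slc7a10-rich and 0.36 in Agt-rich cells. Without the 13 and 23 Agt-rich cells with 10 or more Myoc UMIs, Gfap had -0.08 (-0.16 to 0.0055) and Apoe -0.11 in Agt-rich cells, so neither had opposite signs, while C4b had 0.25 and Timp1 2.48. Apoe had -0.28 and 0.024, C4b, a complement gene of reactive astrocytes, -0.21 and 0.24, and Timp1, an inhibitor of matrix proteases, -1.41 and 1.60.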

How the results depend on the processing

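With 1 library per group, no value between tomatidine and control has a replicate check. No paired analysis was possible because each group holds 1 library. Leaving out a library was possible for single genes between subsets only, as values from the other library. The larger astrocyte share with tomatidine kept its direction, at 3.50 points with the study's cell thresholds, 1.79 without cells holding RNA of other types and 1.79 in core astrocytes. The Agt-rich share differed by -15.1 points thinned to 1000 UMIs, -11.9 thinned to 2000 and -5.32 thinned to 4000, where the interval (-12.6 to 1.97) includes 0. Genes past the 1.5-fold numbered 197 thinned, 957 and 73 with a minimum of 20 and 500 UMIs, 671 as means over cells, 195 in core astrocytes, 213 there without Myoc-rich cells and 10 in the few Slc7a10-rich cells of the rule with Slc6a11. With TMM factors 167 were higher and 197 lower, against 196 and 183 as reported. This split was 105 and 331 without RNA of other types, 117 and 194 when the marker minimum was 30 per 10000, and 196 and 247 when the ratio was 10. Between Agt- or Slc6a11-rich and Slc7a10-rich cells the calls were 1558 by Agt alone, 1 by Slc6a11 alone and 1143 with DESeq2. By the Agt division DESeq2 called 329 over all astrocytes and 194 in the core. Against other cells, library totals in place of TMM gave 4211 higher and 6939 lower, where TMM gave 5177 and 5454. Single genes reversed over tomatidine: Vip to 0.033 without RNA of other types, 0.012 in the core and 0.0066 there without Myoc-rich cells, Spp1 to 0.71, 0.69 and 0.56, and in Slc7a10-rich cells Spp1 to 3.21, H2-Ab1 to 0.91, H2-Aa to 0.42, Cd74 to 0.97 and Ptx3 to -0.024. Vtn between subsets reversed to -0.68 at a ratio of 10 and -0.24 at a summed minimum of 10. The causes were not tested.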

Other observations

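Myoc, which had the largest named fold in astrocytes over other cells and in Agt-rich over Slc7a10-rich core cells, was held by few cells. Over all kept astrocytes its log2 fold between the subsets (7.89) was below those of Cdhr3 (9.27) and Tmem212 (8.43), among others. A threshold of 10 Myoc UMIs, chosen after the values were seen, marked 28 of 838 control (3.34%, 2.23 to 4.79%) and 40 of 1072 tomatidine core astrocytes (3.73%, 2.68 to 5.05%). These cells held 96.2% and 97.8% of the core Myoc UMIs. None of the 108 and 195 Slc7a10-rich cells was among them, which allows a share of up to 3.36% and 1.87% (exact binomial), while 13 and 23 Agt-rich cells were. Their median depths were 14229 and 12472 UMIs, against 4217 and 4348.5 in the other core cells.

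The Myoc-rich cells were also rich in filament and water channel transcripts, given here as a description. Gfap stood at 10896 and 14300 CPM in them, against 2363 and 2062 CPM in the other core astrocytes of the control and tomatidine libraries. Aqp4 stood at 4788 and 5054 CPM against 1296 and 1309 CPM. Serpinf1 (430 and 583 CPM against 27.9 and 28.1 CPM), Fxyd6 (833 and 1067 against 49.4 and 81.2 CPM) and Cd44, a hyaluronan receptor (117 and 164 against 19.5 and 21.8 CPM), were higher as well. Slc6a11 (587 and 961 CPM against 2422 and 3192 CPM), Mfge8 (561 and 452 against 1857 and 2031 CPM) and Grin2c, an NMDA receptor subunit of astrocytes (155 and 94.8 against 538 and 546 CPM), were lower in both libraries. Agt itself was at 822 and 787 CPM in them and at 1193 and 1231 CPM in the other core cells.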
